A study of Mus musculus with 75 samples.

Results

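The 10 genes described here encode the receptors of bone morphogenetic protein (BMP) and the Smad proteins behind them. They were taken by symbol from a table of 26218 genes, and each symbol had 1 row. The table held 75 libraries of mouse germ cells, made from 1 ng of RNA each with a method that reads the 3′ ends of transcripts, and its values were RPM, reads scaled to 1000000 per library. Germ cells from embryos of an ICR and C57BL/6 cross were sorted each day, with 2 libraries a group. Female and male cells were separate from E12.5 to E15.5, and cells from E9.5 to E11.5 had no sex label. Cells up to E13.5 carried a Dppa3-EGFP transgene and those at E14.5 and E15.5 a Ddx4-RFP transgene, so stage and reporter cannot be told apart across that step.

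The other libraries came from germ cells made in culture from embryonic stem cells, called primordial germ cell-like cells (PGCLCs). All of these carried Prdm1-mVenus and Dppa3-ECFP transgenes, were induced in medium with BMP4, LIF, SCF and EGF, and were then cultured on mitomycin-treated m220 feeder cells with forskolin and rolipram. In a 129S1:C57BL/6 line, cells labelled RB, RA or CT were sampled at culture days 5, 7 and 9, beside CT cells at day 3 and cells at day 0, with 2 libraries each. The factors for female fate were given from day 3. The labels do not spell out the codes, and from knowledge of the study RB is retinoic acid with BMP, RA is retinoic acid alone and CT is the control. Stra8-/- cells, with 4 libraries a time point from the lines SK1 (2 libraries), SK2 and SK3, and wild-type cells, with 2 libraries, had a DBA/2:C57BL/6 background and were taken as CT cells at day 3 and as RB cells at days 5, 7 and 9. The library labelled 0R3B and 6 libraries of a C57BL/6 line, whose genotype also lists Gtrosa26tm1Sor/0, had no replicate.

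BMP ligands bind a complex of type II receptors, here BMPR2, and type I receptors, here BMPR1A, BMPR1B and ACVR1. The type I receptor phosphorylates the receptor-regulated Smads SMAD1, SMAD5 and SMAD9, which enter the nucleus with the common partner SMAD4 and bind regulatory DNA of genes such as those of the Id family. SMAD6 and SMAD7 inhibit the pathway and are themselves induced by it in many cell types, which makes them negative feedback genes. In mouse germ cells BMP is required first for primordial germ cell specification and, together with retinoic acid, has been linked to the female fate.

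Depth was 1.08 to 15.62 M reads per library (1 M is 1000000), as estimated from the size of 1 read in RPM, with a median of 3.12 M. A count of 0 therefore allows a level of up to 0.192 to 2.777 RPM (3 reads), by counting error only. A list of 9 germ cell markers summed to between 1899.7 and 8195 RPM in all groups. In E15.5 female cells Ddx4 and Dazl were at 511 to 568 and 1621 to 1878 RPM. Dppa3 and Pou5f1 were low there, at 11.4 to 37.7 and 9.43 to 10.0 RPM, and 6 of the 9 markers lay above 3 reads in both libraries. Sums of markers of other cell types are given beside many of the results, and not for every comparison in which they differed. In bulk libraries fewer cells of a type and less RNA per cell cannot be told apart. It is not stated that replicate libraries had separate animals or cultures as their source, and p-values therefore measure the spread between libraries alone. A gene is called below when limma gave a Benjamini-Hochberg adjusted p under 0.05 and a log2 fold change, on the log2(RPM + 1) scale, of at least 1. Genes with at least 5 RPM in 2 libraries of an experiment were tested, which took in all 10 genes in embryos and 9 in each PGCLC experiment. Bmpr1b passed this filter in embryos only through male cells at E14.5 and E15.5, and Smad9 passed through 2 female libraries in embryos and through RB cells in PGCLCs, so that these genes had to differ somewhere. Where they are high through those libraries, they count among the called genes but are given as values, with no p.

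Smad9 and Smad6 were among the members that were higher in RB cells, and the 250 bases before their RefSeq transcript starts are shown for this reason. GRCm38.p6 coordinates are chr3:54755332-54755581 on the plus strand for Smad9 and chr9:64022060-64022309 on the minus strand for Smad6. The RefSeq genes span 54755455 to 54801662 on chromosome 3 for Smad9 and 63953076 to 64022085 on chromosome 9 for Smad6. Each window therefore runs into its gene, and both matches marked below lie inside the gene span. Capitals mark matches to the GC-rich Smad element GGCGCC in Smad9 and to the bipartite BMP element GNCGNCNNNNNGTCT in Smad6.
Smad9: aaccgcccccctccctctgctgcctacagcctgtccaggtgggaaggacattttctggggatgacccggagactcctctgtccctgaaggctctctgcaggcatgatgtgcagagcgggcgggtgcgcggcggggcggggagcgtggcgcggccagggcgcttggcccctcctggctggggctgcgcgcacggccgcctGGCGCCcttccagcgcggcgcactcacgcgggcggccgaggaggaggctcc
Smad6: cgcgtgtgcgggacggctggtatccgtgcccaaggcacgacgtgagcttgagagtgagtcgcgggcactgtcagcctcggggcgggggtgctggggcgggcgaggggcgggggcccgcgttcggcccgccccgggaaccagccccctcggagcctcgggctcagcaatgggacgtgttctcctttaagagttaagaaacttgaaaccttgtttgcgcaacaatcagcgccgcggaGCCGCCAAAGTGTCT
Both strands were searched for these motifs and for the Smad box GTCTG, which can overlap the last 4 letters of the bipartite element. Over 32851 windows of 250 bases, 9.59% held GGCGCC, 42.2% held GTCTG and 0.511% held the bipartite element. The Smad6 match begins 15 bases before the start, and neither GGCGCC nor GTCTG was found in that window. GGCGCC was also found once in the windows of Bmpr1a and Bmpr2 and in 1 of 3 Smad5 windows, GTCTG was found in 2 of 3 Bmpr1b windows and in 1 of 3 Smad5 windows, and no motif was found in those of Acvr1 and Smad1. The windows covered 8 of the 10 genes, and those of Smad4 and Smad7 were not used here. A match of letters is a description of the window and not evidence of binding.

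In GRCm38 the RefSeq gene Bmpr2 lies on chromosome 1 from 59764279 to 59878081, Bmpr1a on chromosome 14 from 34411061 to 34503336, Bmpr1b on chromosome 3 from 141837135 to 142169585 and Smad5 on chromosome 13 from 56703010 to 56742378. In embryos the type II receptor gene Bmpr2 was higher in female cells from E14.5 on, beside the type I receptor gene Bmpr1a, while the second type I gene Bmpr1b was read in male cells. At E14.5, 48.3% of the genes tested were called between the sexes, so a called gene was common there. Bmpr2 was at 39.5 and 35.6 RPM in E14.5 female cells, against 6.93 and 6.00 RPM in E14.5 male cells, and at 39.5 and 37.6 RPM in E15.5 female cells, against 10.0 and 5.65 RPM in E15.5 male cells. All 4 female libraries lay above all 4 male ones. The log2 difference was 2.37 at E14.5 (adjusted p = 4.09e-06) and 2.21 at E15.5 (adjusted p = 8.87e-06), with 53.6% of all genes called at E15.5. At E12.5 Bmpr2 had averaged 2.55 ± 0.815 RPM in female cells and 5.85 ± 1.43 RPM in male cells (SD, n = 2 each; adjusted p = 0.0853, limma).

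Bmpr1a stood at 144 and 150.1 RPM in E14.5 female cells, against 54.5 and 48.9 RPM in E14.5 male cells. At E15.5 it stood at 120.2 and 114 RPM in female cells, against 47.8 and 43.4 RPM in male cells. The sexes did not overlap at either stage, with log2 differences of 1.49 (adjusted p = 4.54e-09) and 1.34 (adjusted p = 1.92e-08). In the order of the 11 embryonic groups the 4 female groups were the highest, at 109.9 to 147 RPM on average, and E14.5 and E15.5 male cells were the lowest, at 51.7 and 45.6 RPM. The first neighbours in that order, female cells at E13.5 and E14.5, did not differ beyond their spread (147 ± 33.3 and 147 ± 4.52 RPM).

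Bmpr1b was at 0 in both E14.5 female libraries, against 8.74 and 7.43 RPM in E14.5 male libraries, and at 0.304 and 0.278 RPM in E15.5 female libraries, against 5.56 and 9.88 RPM in E15.5 male libraries. Male cells at E14.5 were thus at least 9.15-fold higher, taking 3 reads in each female library as the floor. These 4 male libraries were the only ones of all 75 at 5 RPM or more, and 50 libraries were at 0. Acvr1, the third type I receptor gene, ran differently, with 29.6 and 22.3 RPM in E12.5 female cells, against 10.8 and 17.5 RPM in E12.5 male cells. At E13.5 it averaged 37.8 ± 0.904 RPM in female cells and 14.7 ± 1.70 RPM in male cells (SD, n = 2 each), without overlap, and was called (log2 1.31, adjusted p = 0.0103, limma). At E14.5 it was at 2.95 and 1.92 RPM in female cells, against 6.63 and 10.9 RPM in male cells, and was called in the opposite direction (log2 -1.49, adjusted p = 0.0014). The E13.5 call rested on single libraries, with an adjusted p of 0.058 without female replicate 2 and 0.0746 without male replicate 2.

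**Figure D1:**
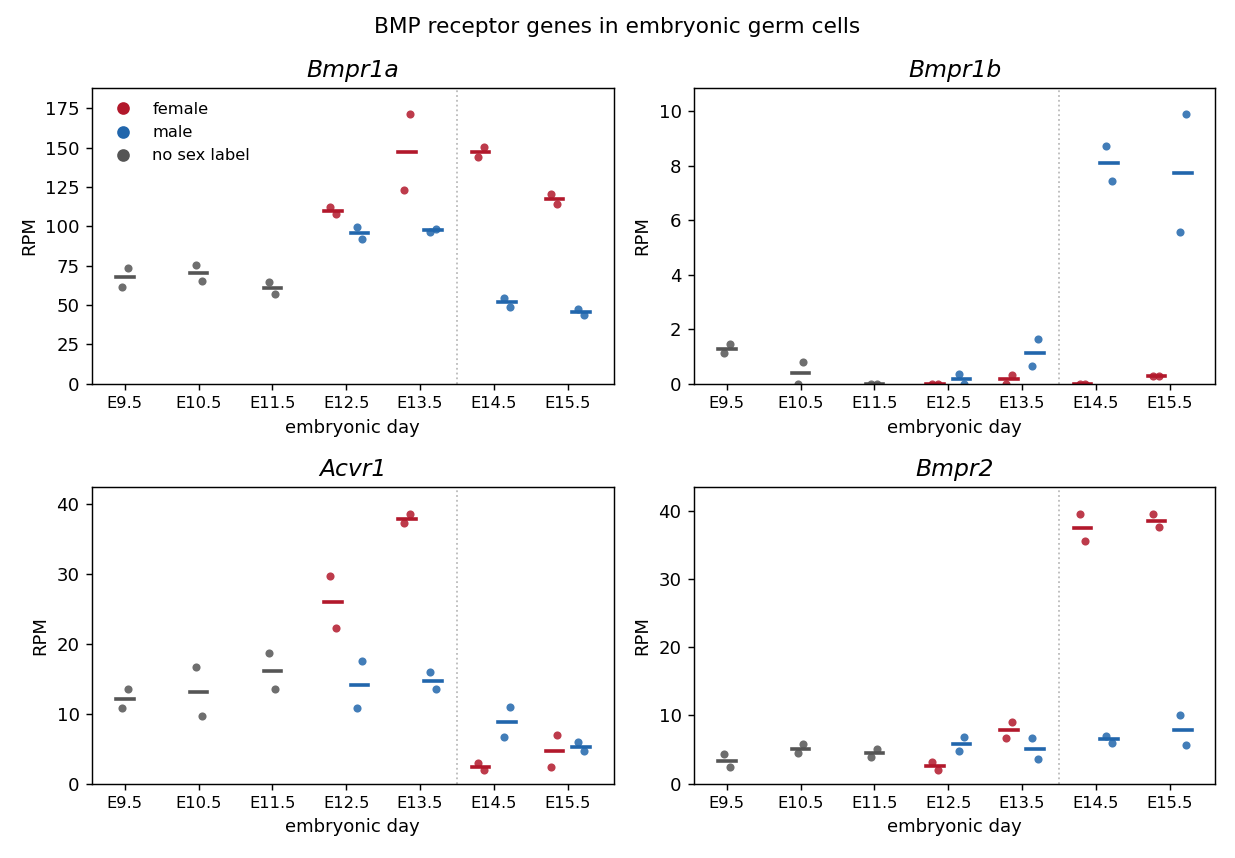
BMP receptor genes in embryonic germ cells, in RPM (y axis) by embryonic day (x axis). Each point is a library and each bar the mean of 2, in red for female cells, blue for male cells and grey for cells without a sex label, with a dotted line where the reporter changes. Female Bmpr2 lies at 35.6 to 39.5 RPM from E14.5 on, against 5.65 to 10.0 RPM in male cells, and Bmpr1b reaches 5 RPM in male cells alone.

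Among the receptor-regulated Smads of embryos, Smad5 was higher in female cells from E14.5 on and Smad9 was higher in female cells at E13.5. Smad5 was at 78.3 and 84.4 RPM in E14.5 female cells, against 23.8 and 37.2 RPM in E14.5 male cells, a log2 difference of 1.42 (adjusted p = 2.25e-05). At E15.5 it was at 82.7 and 69.3 RPM in female cells, against 31.9 and 24.7 RPM in male cells (log2 1.40, adjusted p = 2.29e-05). The groups did not overlap at either stage, whereas they did at E12.5 and E13.5.

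Smad9 was at 7.79 and 4.17 RPM in E13.5 female cells and at 0 in both E13.5 male libraries, so female cells were at least 6.07-fold higher. At this stage 16.7% of all genes were called and 3 of the 10 genes were, Acvr1, Smad9 and Smad1. By E14.5 male cells had Smad9 reads too, and the sexes differed little, at 3.69 ± 0.189 RPM in female cells and 2.78 ± 0.518 RPM in male cells (SD, n = 2 each; adjusted p = 0.5, limma). Smad1 was low throughout, at most 8.21 RPM in embryos. It was lower in female cells at E13.5, with 2.02 and 1.60 RPM against 4.44 and 8.21 RPM in male cells (log2 -1.34, adjusted p = 0.0131), and higher at E14.5, with 4.12 and 3.01 RPM against 0.603 and 1.71 RPM in male cells (log2 1.12, adjusted p = 0.0167). Neither Smad1 call held without each library, since the adjusted p was 0.084 without E13.5 female replicate 2, 0.164 without E13.5 male replicate 2, 0.102 without E14.5 female replicate 1 and 0.184 without E14.5 male replicate 1.

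Smad4, the shared partner, was lower in E14.5 female cells, at 56.0 and 46.0 RPM, against 103 and 105 RPM in E14.5 male cells (log2 -1.02, adjusted p = 1.01e-06). The groups did not overlap, and the log2 difference was -0.88 without female replicate 2, which is inside the fold threshold. At E15.5 Smad4 was at 56.9 and 58.5 RPM in female cells, against 78.9 and 99.5 RPM in male cells, a log2 difference of -0.61 (adjusted p = 5.03e-04) that did not reach the fold threshold.

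The inhibitory Smads parted in opposite directions between the sexes. Smad6 was higher in female cells, at 28.0 and 19.4 RPM against 10.8 and 8.00 RPM in male cells at E14.5, and at 12.8 and 6.96 RPM against 4.45 and 2.82 RPM in male cells at E15.5. The log2 differences were 1.24 (adjusted p = 5.96e-04) and 1.20 (adjusted p = 7.19e-04). Both stood near the fold threshold, at 0.99 without E14.5 female replicate 1, 0.80 without E15.5 female replicate 1 and 0.94 without E15.5 male replicate 2. At E13.5 Smad6 had been at 36.6 and 52.9 RPM in female cells, against 24.1 and 20.0 RPM in male cells (log2 0.97, adjusted p = 0.0123).

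Smad7 averaged 9.16 ± 2.54 RPM in E14.5 female cells and 17.1 ± 2.06 RPM in E14.5 male cells (SD, n = 2 each), without overlap (log2 -0.85, adjusted p = 0.00759, limma, not past the fold threshold). At E15.5 it was at 1.52 and 1.95 RPM in female cells, against 15.6 and 16.6 RPM in male cells, a log2 difference of -2.65 (adjusted p = 6.18e-09). E15.5 female cells were the lowest of all 75 libraries for Smad7, and E14.5 female cells were the next lowest embryonic group.

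**Figure D2:**
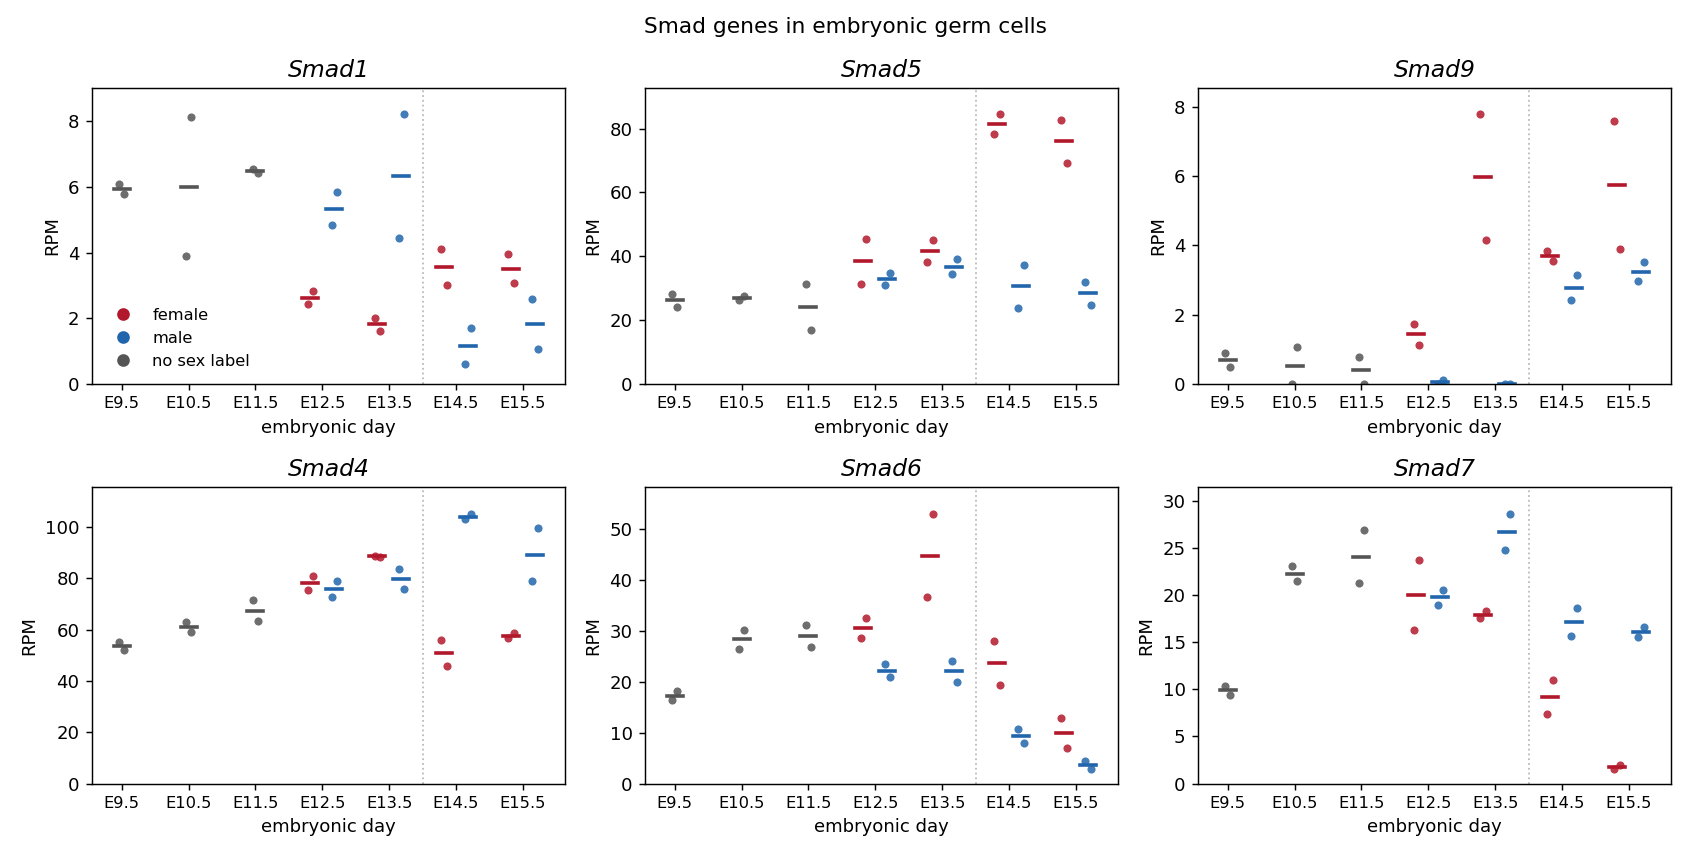
Smad genes in embryonic germ cells, in RPM (y axis) by embryonic day (x axis), with points for libraries, bars for the mean of 2 and colours as for the receptors (red female, blue male, grey without a sex label). Smad5 separates upward in female cells at E14.5 and E15.5, and Smad7 is at 1.52 and 1.95 RPM in E15.5 female cells, against 15.6 and 16.6 RPM in E15.5 male cells.

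Over the 4 sexed stages, no gene of the 10 was called at E12.5, beside 6.53% of all genes, and 3 were at E13.5, beside 16.7%. At E14.5 it was 8 (5 higher and 3 lower in female cells), beside 48.3% of all genes, and at E15.5 it was 6 (4 higher and 2 lower), beside 53.6%. These counts include Bmpr1b and Smad9, which passed the filter through the groups compared. At E12.5 limma gave 3 genes at an unadjusted p under 0.05 and none at an adjusted one, and the count of calls was 1 with a pseudocount of 0.5 RPM. The median log2 difference of the 10 genes was 0.72 at E14.5, beside -0.08 over all genes, and 0.67 at E15.5, beside -0.14. The change of the sex difference between E12.5 and E15.5 was tested as an interaction, for which 49.9% of all genes were called. It was called upward for Bmpr2 (log2 3.16), Smad1 (1.52), Smad5 (1.20) and Bmpr1a (1.14) and downward for Smad7 (-2.64) and Bmpr1b (-2.48). Smad1 lost this call in 4 of the fits that left out a library (adjusted p 0.0595 to 0.124), and Smad5 fell to 0.94 without E12.5 female replicate 1.

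Sums of markers of other cells differed between the sexes from E12.5 on. A list of 9 fibroblast markers then summed to 97.3 to 136 RPM in female cells, against 49.3 to 63.3 RPM in male cells. Of these 9 markers 1 lay above 3 reads in female cells and 2 did in male cells. Vim alone was at 95.3 to 133 RPM in female cells, against 47.4 to 57.2 RPM in male cells. The median log2 difference of the 7 markers tested was -0.21. At E14.5 a list of 11 gonadal somatic markers summed to 20.3 to 23.3 RPM in female cells, with 6 of 11 above 3 reads, against 51.7 to 81.3 RPM in male cells, with 8 of 11. Amh was at 0 in both sexes, and Sox9, Cyp11a1 and Cyp17a1 were at 0 in female cells. The fibroblast sum was 56.2 to 59.4 RPM in female cells, against 77.7 to 173 RPM in male cells. At E15.5 the somatic sum was 14.8 to 19.2 RPM in female cells, against 40.6 to 46.1 RPM in male cells, and the fibroblast sum 25.9 to 44.4 RPM in female cells, against 119 to 138 RPM in male cells. At E13.5, as at E12.5, the fibroblast sum lay the other way, at 84.3 to 95.7 RPM in female cells, against 33.3 to 37.4 RPM in male cells. Of that sum, Vim alone was at 80.8 to 92.0 RPM in female cells, against 29.4 to 31.1 RPM in male cells. The median log2 difference of the 7 fibroblast markers tested at E13.5 was -0.35. The part of these cell markers in the results was not tested.

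Before the sexes were separated, 2 of the 10 genes were called between E9.5 and E11.5, beside 11.4% of all genes. At an unadjusted p under 0.05 limma gave 4 of the 10. Smad7 was at 21.3 and 26.9 RPM in E11.5 cells, against 10.4 and 9.43 RPM in E9.5 cells (log2 1.20). Bmpr1b was at 0 in both E11.5 libraries, against 1.13 and 1.45 RPM in E9.5 cells, and each library left out in turn ended that call (adjusted p 0.0693 to 0.139). Blood and endothelium markers, 10 genes in all, summed to 123 to 141 RPM in E11.5 cells, against 3026 to 3219 RPM in E9.5 cells. Fibroblast markers summed to 98.2 to 108 RPM in E11.5 cells, against 333 to 341 RPM in E9.5 cells. Gonadal somatic markers lay the other way, at 47.2 to 59.1 RPM in E11.5 cells, against 29.0 to 37.5 RPM in E9.5 cells. The part of these markers was not tested.

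Female E15.5 cells set against E11.5 cells had 52.6% of all genes called. Bmpr2 (log2 2.85), Smad9 (2.28) and Smad5 (1.67) were higher, and Acvr1 (-1.69), Smad6 (-1.52) and Smad7 (-3.19) were lower. Male E15.5 cells set against the same E11.5 libraries had 47.1% called. Bmpr1b, at least 8.02-fold higher, and Smad9 (log2 1.66) were higher, and Acvr1 (-1.44), Smad1 (-1.46) and Smad6 (-2.72) were lower. The Smad9 difference in male cells was 0.78 (adjusted p = 0.117) with quantile normalization, and that of Smad1 was -1.06 (adjusted p = 0.0588) without male replicate 2. Both comparisons share the E11.5 libraries and cross the change of reporter. Fibroblast markers summed to 25.9 to 44.4 RPM in E15.5 female cells and 119 to 138 RPM in E15.5 male cells, against 98.2 to 108 RPM in E11.5 cells, with 2, 8 and 2 of 9 above 3 reads. In male cells 6 of 7 tested fibroblast markers and 4 of 7 somatic ones were called higher than at E11.5. The somatic sum was 14.8 to 19.2 RPM in E15.5 female cells and 40.6 to 46.1 RPM in E15.5 male cells, against 47.2 to 59.1 RPM in E11.5 cells. Their part in these results was not tested.

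The sum of the inhibitory Smads over the sum of the receptor-regulated Smads, both in RPM, gives a description of how the balance of transcripts shifted. It is compared between groups only, since capture differs between genes. The ratio was 1.26 ± 0.191 in E13.5 female cells and 1.15 ± 0.166 in E13.5 male cells (SD, n = 2 each). It was 0.372 ± 0.0532 in E14.5 female cells and 0.811 ± 0.252 in E14.5 male cells, and 0.134 ± 0.0246 in E15.5 female cells and 0.599 ± 0.0905 in E15.5 male cells. The sexes overlapped at E13.5 and not at E14.5 or E15.5.

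In PGCLCs of the 129S1:C57BL/6 line, RB cells gained reads of Bmpr2, Smad9 and Smad6 from day 7 on, beside Bmpr1a at day 7 and Smad5 at day 9. In RA cells Bmpr2 was the 1 called gene of the 9 tested, at day 9, while 4 of the 9 had an adjusted p under 0.05 by limma. Smad9 was called as well in 1 fit over the experiments and without the trend in the spread. At day 5 none of the 9 genes was called in any pair of conditions, when 0.674% of all genes were called between RB and CT, 0.244% between RA and CT and 0.0421% between RB and RA. At an unadjusted p under 0.05 limma gave 2, 1 and 0 of the 9 genes in these comparisons.

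Bmpr2 was at 18.4 and 15.4 RPM in RB cells at day 7, at 6.84 and 8.10 RPM in RA cells and at 5.88 and 1.86 RPM in CT cells. At day 9 it was at 36.1 and 47.0 RPM in RB cells, at 14.2 and 12.6 RPM in RA cells and at 3.86 and 1.94 RPM in CT cells. The 3 conditions did not overlap at either day. At day 9 the log2 difference was 3.48 for RB against CT (adjusted p = 1.84e-07, with 36.7% of all genes called), 1.93 for RA against CT (adjusted p = 0.00119, with 16.3% called) and 1.56 for RB against RA (adjusted p = 0.0037, with 24.8% called).

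Smad9 was at 11.4 and 10.9 RPM in RB cells at day 7 and at 0 in both RA and both CT libraries, so that RB cells were at least 12.0-fold above CT cells. At day 9 it was at 33.0 and 27.9 RPM in RB cells, at 1.89 and 2.19 RPM in RA cells and at 1.29 and 0 RPM in CT cells. The log2 difference at day 9 was 4.37 against CT and 3.37 against RA. RA against CT gave 1.01 with an adjusted p of 0.0846. Across all 75 libraries 29 were at 0 for Smad9, and 39 were under 3 reads.

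Smad6 was at 68.3 and 91.9 RPM in RB cells at day 7, at 37.2 and 31.1 RPM in RA cells and at 34.3 and 28.1 RPM in CT cells. At day 9 it was at 98.1 and 99.8 RPM in RB cells, at 43.2 and 47.3 RPM in RA cells and at 28.0 and 22.3 RPM in CT cells. RB cells lay above both other conditions at each day. At day 9 the log2 difference was 1.94 against CT (adjusted p = 5.39e-08) and 1.11 against RA (adjusted p = 1.75e-04), while RA against CT gave 0.83 (adjusted p = 0.00512), inside the fold threshold. Smad6 and Smad9, whose start windows are printed above, were the genes called between RB and RA at both days, although without RB replicate 2 the Smad6 difference at day 7 was 0.99 (adjusted p = 0.0648).

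Smad7 was at 51.9 and 52.8 RPM in RB cells at day 7, at 20.2 and 30.7 RPM in RA cells and at 23.5 and 31.8 RPM in CT cells. It was called against RA (log2 1.04, adjusted p = 0.0188) and not against CT (0.91, adjusted p = 0.0118), and the call against RA had an adjusted p of 0.228 without RA replicate 1, 0.0719 without RB replicate 1 and 0.152 without RB replicate 2. At day 9 Smad7 was at 39.7 and 48.0 RPM in RB cells, at 28.0 and 25.7 RPM in RA cells and at 29.9 and 25.9 RPM in CT cells, and neither log2 difference, 0.68 against RA or 0.63 against CT, reached the fold threshold. Its highest average in this line was that of day 0 cells, before the feeder culture, at 52.5 and 90.2 RPM.

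Bmpr1a was at 168 and 146 RPM in RB cells at day 7, at 112 and 118 RPM in RA cells and at 72.5 and 73.3 RPM in CT cells. The log2 difference of RB against CT was 1.09 (adjusted p = 4.37e-05, with 19.3% of all genes called), and it was 0.99 without RB replicate 1 and 0.80 after median centring, both inside the fold threshold. RA against CT at day 7 gave 0.65 (adjusted p = 0.0208), and none of the 9 genes was called there, beside 5.21% of all genes, while 2 had an unadjusted p under 0.05 by limma. At day 9 Bmpr1a was at 136 and 160.4 RPM in RB cells, at 115 and 141 RPM in RA cells and at 72.0 and 78.9 RPM in CT cells, with 0.96 for RB and 0.75 (adjusted p = 0.00234) for RA against CT, so RB and RA cells overlapped and CT cells lay below both.

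Smad5 was at 60.4 and 64.7 RPM in RB cells at day 9, at 47.9 and 33.4 RPM in RA cells and at 39.5 and 21.0 RPM in CT cells. RB against CT gave a log2 difference of 1.09 (adjusted p = 0.00262), which was 0.65 (adjusted p = 0.105) without CT replicate 2, 0.77 after median centring and 0.81 with quantile normalization. Acvr1 at day 9 was at 21.4 and 9.93 RPM in RB cells, at 33.4 and 26.8 RPM in RA cells and at 12.9 and 17.1 RPM in CT cells, and the differences of 0.96 for RA against CT and -0.98 for RB against RA did not reach the fold threshold. Smad4 and Smad1 were called in none of the comparisons of this line, with Smad4 averages of 82.6 to 109.8 RPM over the 11 groups, and Smad1 between 3.30 and 12.0 RPM in its 22 libraries.

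**Figure D3:**
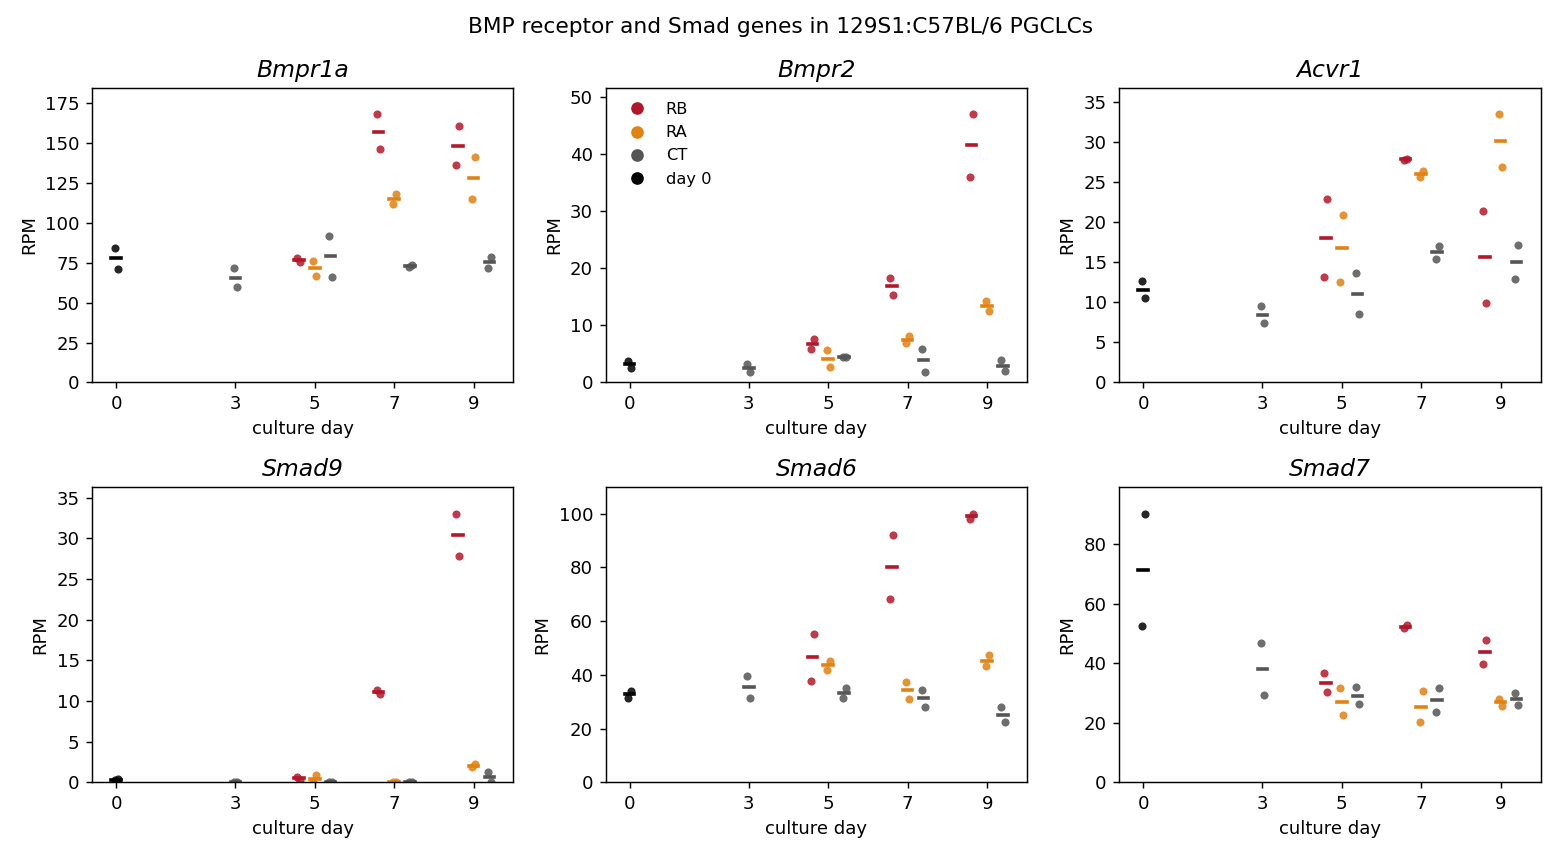
Member genes in PGCLCs of the 129S1:C57BL/6 line, in RPM (y axis) by culture day (x axis), with RB, RA and CT from left to right within a day, points for libraries and bars for means of 2. RB cells at day 9 reach 36.1 and 47.0 RPM for Bmpr2, 33.0 and 27.9 RPM for Smad9 and 98.1 and 99.8 RPM for Smad6, and lie above RA and CT cells for each.

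In counts, 4 of the 9 genes tested were called higher and none lower for RB against CT at day 7, beside 19.3% of all genes. The count was the same at day 9, beside 36.7%. For RB against RA 3 were higher and none lower at each day, beside 4.62% of all genes at day 7 and 24.8% at day 9. For RA against CT 1 was called at day 9, beside 16.3%. Each RB count includes Smad9, which passed the filter through RB cells. The median log2 difference of the 9 genes was 0.96 for RB against CT at day 9, beside 0.19 over all genes, and 0.63 for RB against RA, beside -0.05. The median of all genes was 0.22 for RB against CT at day 7 and lay between -0.14 and 0.27 in the other comparisons. The calls were not corrected for that shift, and median centring gave 0.90, inside the fold threshold, for Smad7 in RB against RA at day 7. RB, RA and CT comparisons share libraries, so their values stand side by side only. The growth of the RB difference from day 5 to day 9 was called against CT for Bmpr2 (log2 2.97), Smad9 (3.80), Smad6 (1.50) and Smad5 (1.04), beside 29.7% of all genes, and against RA for Smad9 (3.25) and Smad6 (1.04), beside 17.5%. Without a library of those groups, Smad5 kept its call in 1 of 8 fits and had adjusted p-values of 0.0623 to 0.287 in the others, and Smad6 against RA had 0.77 (adjusted p = 0.0928) without RB day 5 replicate 1.

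CT cells at day 3 against day 0 cells (5.47% of all genes called) and CT cells at day 9 against CT cells at day 3 (2.25%) gave no call by limma among the 9 genes, with 1 and 2 genes at an unadjusted p under 0.05. Smad7 came nearest, at 46.7 and 29.5 RPM in CT cells at day 3, against 52.5 and 90.2 RPM in day 0 cells (log2 -0.87, adjusted p = 0.0464). RB cells at day 9 against CT cells at day 3, the state before the factors, gave 41.1% of all genes and 4 of the 9, which were Bmpr2 (log2 3.60), Smad6 (1.46), Bmpr1a (1.16, or 0.80 after median centring) and Smad9, at least 27.5-fold higher. Fibroblast and feeder markers summed to 57.8 to 96.5 RPM in these RB cells, against 192 to 202 RPM in the CT cells. Blood and endothelium markers summed to 22.4 to 33.5 RPM in RB cells, against 118 to 143 RPM in CT cells. Gonadal somatic markers lay the other way, at 46.5 to 54.8 RPM in RB cells, against 40.8 to 46.3 RPM in CT cells. The part of these markers was not tested.

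Markers of other cells also differed between treatments. At day 7 fibroblast and feeder markers summed to 116 to 144 RPM in RB cells, against 186 to 224 RPM in CT cells, and blood and endothelium markers to 65.9 to 66.4 RPM in RB cells, against 90.7 to 93.1 RPM in CT cells. At day 9 the fibroblast and feeder sum was 57.8 to 96.5 RPM in RB cells, 201 to 305 RPM in RA cells and 178 to 247 RPM in CT cells, with 5, 8 and 5 of 9 above 3 reads. Blood and endothelium markers summed to 22.4 to 33.5 RPM in RB cells, to 50.9 to 58.9 RPM in RA cells and to 78.7 to 106 RPM in CT cells. Of these 10 markers 1, 2 and 3 lay above 3 reads, and Hbb-y, Hba-x, Ptprc, Cdh5 and Emcn were at 0 in all 3 conditions. Gonadal somatic markers lay the other way, at 46.5 to 54.8 RPM in RB cells, 35.3 to 39.1 RPM in RA cells and 22.1 to 36.0 RPM in CT cells. The part of these cell markers in the results was not tested.

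The genes that BMP signalling is known to raise give a reading of the pathway beside its components. Of 10 listed targets 9 were tested. In RB cells against CT cells 4 were higher at day 5, 6 at day 7, and 6 higher and 1 lower at day 9. The median log2 difference was 2.36 at day 9. Of all genes, 0.674% were called at day 5, 19.3% at day 7 and 36.7% at day 9. At day 5, when none of the receptor and Smad genes was called, Id1 averaged 37.5 ± 9.80 RPM in RB cells and 4.01 ± 0.998 RPM in CT cells (SD, n = 2 each; adjusted p = 1.46e-04, limma). At day 9 Id1 averaged 315 ± 34.7 RPM in RB cells, 52.0 ± 16.1 RPM in RA cells and 4.19 ± 0.893 RPM in CT cells, and Hey1, a Notch target that also responds to BMP, was lower in RB cells than in CT cells, at 14.1 ± 1.37 RPM in RB cells and 81.3 ± 13.6 RPM in CT cells. Between the sexes in embryos 7 of 9 targets were already higher in female cells at E12.5, beside 6.53% of all genes called, when none of the 10 genes was called. At E13.5, 6 were higher, beside 16.7% of all genes. At E14.5, 5 were higher and 1 lower (median log2 difference 1.83), beside 48.3% of all genes. At E15.5, 4 were higher and 2 lower (median -0.01), beside 53.6%. The change of the sex difference between E12.5 and E15.5 was called upward for 2 targets and downward for 5, beside 49.9% of all genes. Id1 averaged 210.3 ± 14.7 RPM in E12.5 female cells and 5.82 ± 2.45 RPM in E12.5 male cells (log2 5.00, adjusted p = 3.73e-11).

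Of 11 intracellular regulators of Smads tested at E14.5, 2 were higher and 5 lower in female cells, with a median of -0.55, beside 48.3% of all genes called. Smurf2, a ubiquitin ligase that binds Smads, averaged 169.9 ± 19.6 RPM in female cells and 36.6 ± 5.69 RPM in male cells, whereas Nedd4l, another ligase, averaged 3.41 ± 0.175 RPM in female cells and 75.3 ± 4.68 RPM in male cells. Ctdsp2, a phosphatase known to act on Smads, averaged 36.0 ± 4.05 RPM in female cells and 351 ± 36.5 RPM in male cells. In RB against CT cells at day 9, 4 of the 11 were higher and 2 lower (median 0.08), beside 36.7% of all genes called, with Smurf2 at 139 ± 12.4 RPM in RB cells and 45.0 ± 11.4 RPM in CT cells.

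Among 15 receptors and co-receptors of the wider family, 11 were tested, of which 2 were higher and 3 lower in E14.5 female cells, beside 48.3% of all genes called. Tgfbr1, the type I receptor of TGF-beta, averaged 156 ± 9.05 RPM in female cells and 26.9 ± 1.21 RPM in male cells, and Neo1, a co-receptor through repulsive guidance molecules, 78.1 ± 3.60 RPM in female cells and 31.0 ± 1.78 RPM in male cells. Both were also higher in RB cells than in CT cells at day 9, with Tgfbr1 at 139 ± 24.9 RPM in RB cells and 38.0 ± 3.36 RPM in CT cells. Bambi, a pseudoreceptor that inhibits the pathway, averaged 31.9 ± 2.62 RPM in RB cells and 11.7 ± 3.59 RPM in RA cells (log2 1.40, adjusted p = 4.86e-04). Of 14 ligands few were read in germ cells, 3 being tested at E14.5, and Bmp2 averaged 6.91 ± 1.85 RPM in female cells and was at 0 in male cells, while Bmp7 averaged 9.01 ± 2.67 RPM in female cells and 37.7 ± 2.03 RPM in male cells.

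In the experiment on Stra8, a gene that germ cells need for meiotic entry, reads of Stra8 itself were fewer in the knockout cells and not absent. At day 9 they ran from 77.9 to 483 RPM in Stra8-/- cells, against 1717 and 1813 RPM in wild-type cells. The labels do not give the deleted stretch, so 3′ reads may lie outside it and do not check the knockout. Each line is a clone, and 2 of the 4 libraries of a day come from SK1.

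In RB culture both genotypes were higher at day 9 in Bmpr2, Smad6, Bmpr1a and Smad9 than their own CT cells of day 3. Wild-type cells, with 43.7% of all genes called, were higher in Bmpr2 (log2 1.96), Smad6 (1.34), Bmpr1a (1.14, or 0.87 after median centring) and Smad9, at least 16.7-fold. Stra8-/- cells, with 33.9% called, were higher in Smad6 (1.73), Bmpr2 (1.71), Bmpr1a (1.46), Smad9, at least 13.7-fold, and Acvr1 (1.41, or 0.96 with quantile normalization). Bmpr2, Smad6 and Bmpr1a were also called in the 129S1:C57BL/6 line over these days, beside 41.1% of all genes, and the Stra8 experiment shares no library with it. Smad9 was called there too, but it passed the filter through RB cells in both experiments, so its place in both gives no support. Whether more calls were shared than these rates give was not tested. Fibroblast and feeder markers summed at day 9 to 69.0 to 100.5 RPM in Stra8-/- cells, against 270.2 to 319 RPM at day 3, and to 45.7 to 98.2 RPM in wild-type cells at day 9, against 291 to 334 RPM at day 3. Blood and endothelium markers summed to 67.4 to 110.3 RPM in Stra8-/- cells at day 9, against 132 to 214 RPM at day 3. In wild-type cells these markers summed to 23.4 to 36.9 RPM at day 9, against 145 to 157 RPM at day 3. Their part was not tested.

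Set against wild-type cells at each day, knockout cells differed in 1 gene at day 7 and 1 at day 9, or 2 at day 9 with the replicate number as a block or with quantile normalization. No gene of the 9 was called at day 3, when 0.00819% of all genes were, or at day 5, when 0.0164% were, and limma gave 0 of the 9 an unadjusted p under 0.05 at either day. At day 7 Smad9 was at 3.70, 2.72, 1.35 and 1.75 RPM in the SK1, SK2, second SK1 and SK3 libraries, against 10.9 and 14.6 RPM in wild-type cells. The genotypes did not overlap, and the log2 difference was -2.06, with 8.73% of all genes called. Wild-type cells at day 7 are among the RB cells through which Smad9 passed the filter, so no p is given. At day 7 blood and endothelium markers summed to 140.0 to 213 RPM in Stra8-/- cells, against 68.7 to 97.0 RPM in wild-type cells, fibroblast markers to 129 to 147 RPM in Stra8-/- cells, against 58.3 to 89.6 RPM in wild-type cells, and somatic markers to 18.3 to 25.5 RPM in Stra8-/- cells, against 31.9 to 36.7 RPM in wild-type cells. Their part was not tested. At day 9 Smad9 was at 29.2, 29.4, 18.2 and 20.1 RPM in Stra8-/- cells and averaged 23.6 ± 2.25 RPM in wild-type cells (SD, n = 2), and the groups overlapped (adjusted p = 0.988, limma).

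Smad7 was the gene called at day 9, with 50.6, 63.5, 41.6 and 50.2 RPM in Stra8-/- cells, against 24.3 and 21.1 RPM in wild-type cells. All 4 knockout libraries lay above both wild-type ones, and the log2 difference was 1.13 (adjusted p = 5.43e-04, with 19.1% of all genes called). At day 7 it had been at 22.2, 34.0, 19.7 and 16.1 RPM in Stra8-/- cells, against 24.6 and 22.8 RPM in wild-type cells, which overlap. The change of the genotype difference from day 3 to day 9 was called for Smad7 (log2 1.02, adjusted p = 0.0357, with 14.9% of all genes called), and that call ended when any of 6 single libraries was left out (adjusted p 0.0529 to 0.137) and after median centring (0.0512).

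Smad6 did not pass the test at day 9, at 92.1, 103, 85.6 and 83.4 RPM in Stra8-/- cells, against 70.5 and 75.9 RPM in wild-type cells (log2 0.31, adjusted p = 0.273). Bmpr2 was at 17.8, 17.0, 14.8 and 17.8 RPM in Stra8-/- cells, against 31.9 and 33.7 RPM in wild-type cells. These groups did not overlap either, and the log2 difference of -0.92 (adjusted p = 0.0848) did not pass. It was -1.07 (adjusted p = 0.0224) with the replicate block and -1.05 (adjusted p = 0.0313) with quantile normalization, which made Bmpr2 the second called gene. The ratio of inhibitory to receptor-regulated Smads at day 9 was 1.65 ± 0.129 in Stra8-/- cells (SD, n = 4) and 1.20 ± 0.131 in wild-type cells (SD, n = 2), without overlap.

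**Figure D4:**
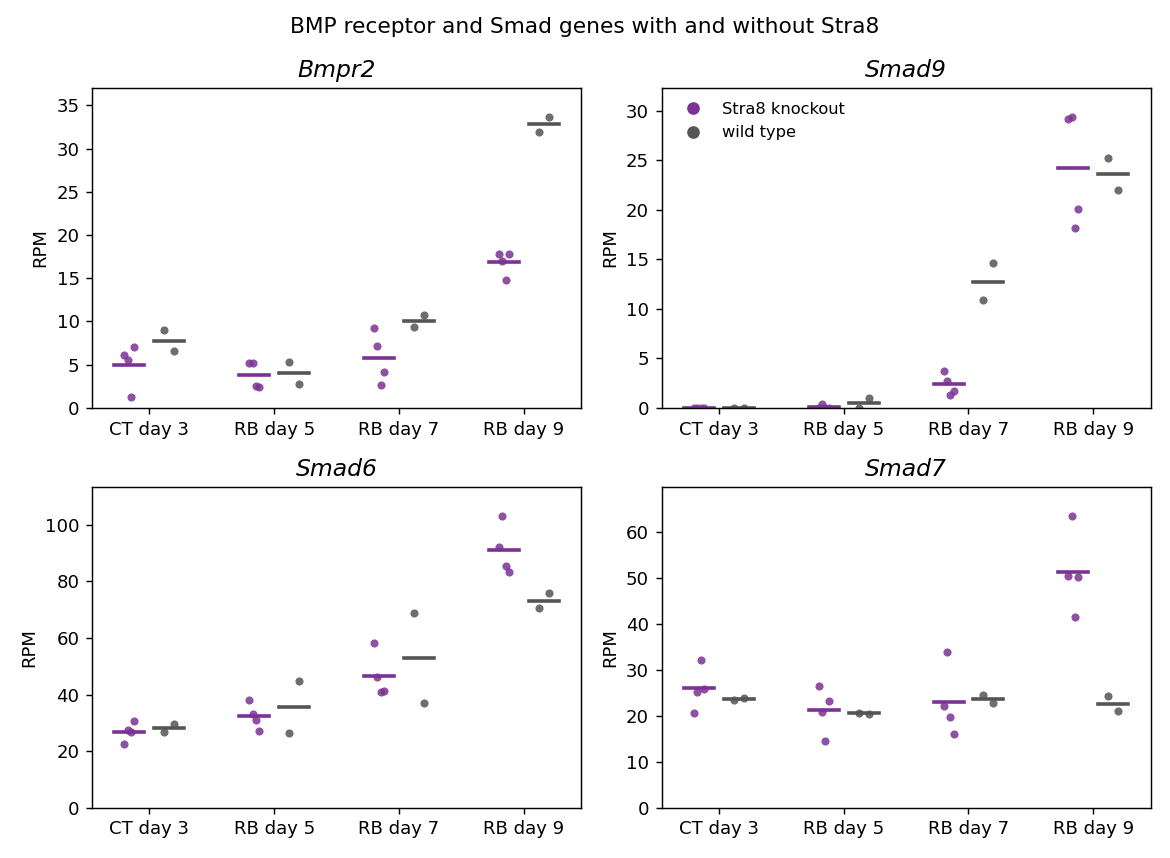
Bmpr2, Smad9, Smad6 and Smad7 in the Stra8 experiment, in RPM (y axis) by treatment and culture day (x axis), with Stra8 knockout libraries in purple left of wild-type libraries in grey and bars for means. Smad7 at day 9 lies at 41.6 to 63.5 RPM in knockout cells, against 21.1 and 24.3 RPM in wild-type cells, and Smad9 at day 7 is lower in knockout cells.

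Of the 9 BMP targets tested, 3 were higher in Stra8-/- cells at day 9 and none lower, with a median log2 difference of 0.75, beside 0.09 over all genes. Id1 averaged 749.7 ± 44.2 RPM in Stra8-/- cells (SD, n = 4) and 232 ± 15.9 RPM in wild-type cells (SD, n = 2). Of the 11 regulators 5 were higher and none lower, beside 19.1% of all genes called, among them Ctdsp2, at 141 ± 12.4 RPM in Stra8-/- cells and 35.9 ± 0.895 RPM in wild-type cells. Smad3, which carries activin and TGF-beta signals, averaged 20.2 ± 4.60 RPM in Stra8-/- cells and 5.14 ± 1.34 RPM in wild-type cells. Blood and endothelium markers summed to 67.4 to 110.3 RPM in Stra8-/- cells, against 23.4 to 36.9 RPM in wild-type cells, with Pecam1, which germ cells also express, the 1 gene of 10 above 3 reads in each genotype, and Ptprc and Emcn at 0. Their part in the results was not tested.

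**Figure D5:**
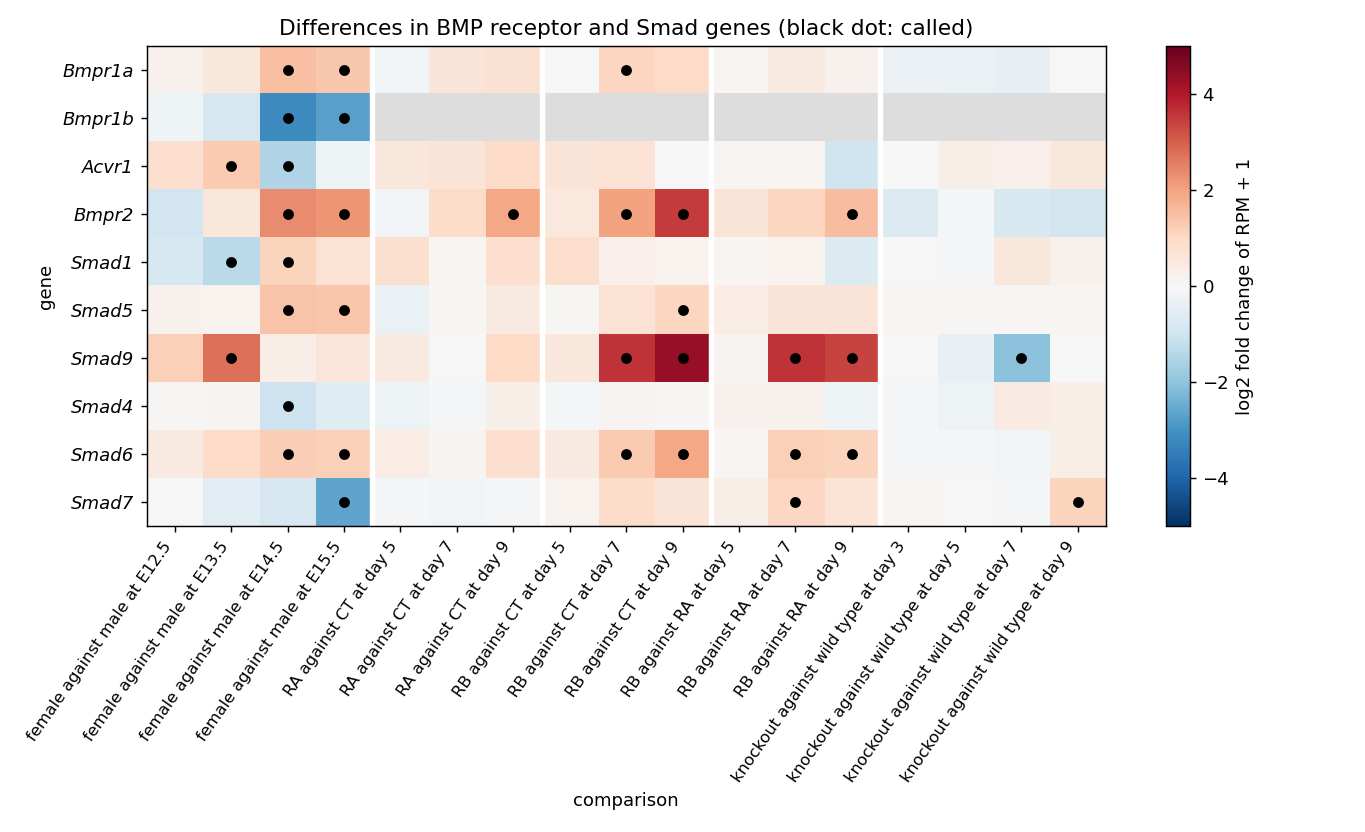
Log2 differences on the log2(RPM + 1) scale of the 10 genes (rows) in 17 comparisons (columns), with red for higher and blue for lower in the first-named group, a black dot for a called gene and grey for a gene not tested. Bmpr2, Smad9 and Smad6 are red with a dot for RB against CT at days 7 and 9, and Smad7 is blue with a dot for female against male cells at E15.5.

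The libraries without replicates give values with counting error only, from exact Poisson intervals at 95%. In the library labelled 0R3B at day 9, a code that the labels do not spell out, Smad9 was at 40.6 RPM (33.3 to 48.9) and Bmpr2 at 34.2 RPM (27.6 to 42.0), beside averages of 30.4 and 41.5 RPM in RB cells of the same day. Smad6 in that library was at 36.5 RPM (29.6 to 44.4), below the 98.1 and 99.8 RPM of RB cells and above the 28.0 and 22.3 RPM of CT cells. Its ratio of inhibitory to receptor-regulated Smads was 0.560, beside 1.43 ± 0.0927 in RB cells and 1.52 ± 0.419 in CT cells (SD, n = 2 each).

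In the C57BL/6 line, the library labelled c7RB, sampled at culture day 9, had Bmpr1a at 159 RPM (147 to 171), against 92.1 RPM (81.9 to 103) in the library labelled c7CT. Acvr1 was at 33.6 RPM in c7RB, against 14.3 RPM in c7CT, Smad5 at 48.0 RPM (41.6 to 55.2) against 27.3 RPM (21.9 to 33.6), and Smad6 at 59.4 RPM (52.2 to 67.3) against 38.2 RPM (31.7 to 45.5). Smad9 was at 3.62 RPM (2.03 to 5.97) in c7RB and at 0 in c7CT, which allows up to 1.14 RPM. Bmpr2 was at 5.79 RPM (3.71 to 8.62) in c7RB and 8.06 RPM (5.27 to 11.8) in c7CT, and these intervals overlap. These values compare single libraries and not conditions.

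Side by side, Bmpr1a averaged 148 RPM in RB cells of the 129S1:C57BL/6 line at day 9 and 147 RPM in E14.5 female germ cells. Bmpr2 averaged 41.5 RPM in RB cells and 37.5 RPM in E14.5 female cells, and Acvr1 15.7 RPM in RB cells and 2.43 RPM in E14.5 female cells. Smad9 averaged 30.4 RPM in RB cells and 3.69 RPM in E14.5 female cells, Smad6 averaged 98.9 RPM in RB cells and 23.7 RPM in E14.5 female cells, and Smad7 averaged 43.9 RPM in RB cells and 9.16 RPM in E14.5 female cells. No test was made between embryo and culture, which differ in strain, reporter and handling.

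The genes whose group means ran most like each member were taken by Pearson r over 37 groups and 11323 genes. These are descriptions over groups that share experiments and reporters. Smad9 ran most like Nrcam (r = 0.95), Tbx2 and Lhx2 (0.94 each), and Bmpr2 most like Neo1 (0.94), Tmem129 and Tfcp2 (0.93 each). Bmpr1b ran most like Atp8b4 (0.93), Bmpr1a most like Itsn2 and Dpm1 (0.91 each), Smad5 most like Eif4enif1 (0.88), Smad4 most like Ppm1b (0.86) and Acvr1 most like Nudt4 (0.84). Smad6 ran most like Slc35b2 (0.84), Smad1 most like Mcl1 (0.83) and Smad7 most like Nadk (0.81).

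Among the members, over 30 replicated groups, Bmpr2 went with Smad5 (r = 0.80) and Smad9 (0.78), and Bmpr1a with Smad5 (0.76). Smad9 and Smad6, whose start windows are printed, had an r of 0.38. Of the inhibitory genes, Smad6 had an r of 0.53 with the BMP target Id1, 0.78 with Id2, 0.75 with Id3 and 0.76 with Gata2. With other BMP targets its r was lower, at -0.10 with Id4, 0.11 with Msx1, 0.39 with Msx2 and -0.07 with Hey1. Smad7 had an r of -0.05 with Id1, 0.19 with Id2, 0.25 with Id3 and 0.31 with Gata2. It had -0.25 with Id4 and with Msx1, 0.30 with Msx2 and 0.42 with Hey1. Bmpr1a and Smad9 had an r of 0.78 and 0.74 with Id1, and of -0.64 and -0.74 with Hey1.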

How the data were processed

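Sorted mouse germ cells and PGCLCs were profiled in 75 libraries by a 3′ end sequencing method, and the authors deposited 1 table of RPM values for all of them. The values are a signal, reads scaled to 1000000 per library, that the authors computed, and per the submitters' processing notes cutadapt 1.11, TopHat 1.4.1, Bowtie 1.0.1, Cufflinks 2.2.0 and the mm10 build were used, with no further detail in the sources used here. The 96 spike-in rows were left out, and 2777 values under 0.001 RPM were set to 0. The 10 genes, the gene lists and the comparisons were chosen with earlier results of these data known.

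Values were log2-transformed after adding 1 RPM. Each of 3 experiments (embryo, 22 libraries; 129S1:C57BL/6 line, 22; Stra8, 24) was fitted once with limma 3.58.1 in R 4.3.3, with a trend in the prior spread and p-values adjusted by Benjamini-Hochberg over the 12567, 11873 and 12206 genes with at least 5 RPM in 2 libraries. Residual degrees of freedom were 11, 11 and 16. The fit was tested on simulated data. Up to 4 called genes of a list with the largest change could be named for each comparison. All 10 members are reported whatever their change, with the 3 genes most like each by Pearson r. Promoter windows are the 250 bases before RefSeq starts in GRCm38.p6, and sequences were not printed for every member. Depth, taken from the RPM of 1 read, was 2.69 to 4.44 M reads in embryos, 2.52 to 4.29 M in the 129S1:C57BL/6 line and 1.08 to 15.62 M in the Stra8 experiment. Of the low values of a library, the only ones examined for this, 81.0 to 93.2% were whole reads within 0.05 reads. Intervals and floors cover counting error only. Knockout cells of days 3 and 9 are paired by cell line per the labels (SK1, SK2 and SK3), and deviations of a line from the group mean correlated at -0.08 to 0.04 between those days. Replicates correlated at 0.978 to 0.993 over 50 pairs and no 2 libraries were identical. Alternatives were other pseudocounts, filters and scalings, a replicate block, a block by knockout line, 1 fit over the experiments, SK1 libraries averaged and each library left out.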

Additional observations from a re-analysis of the deposited data

Results flagged for a closer look

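In 5 of 40 sets of 4 knockout libraries, 1 library lay far from the other 3, where chance gives about 1 in 20, and 4 of the 40 sets were at 0 throughout. These were Bmpr1a at 56.4 RPM in CT cells at day 3, Smad9 at 0.389 RPM in RB cells at day 5, Acvr1 at 22.4 RPM in RB cells at day 7, and Bmpr1b at 1.96 RPM and Smad5 at 57.2 RPM in RB cells at day 9. In the Bmpr1b and Smad9 sets the other 3 libraries were at 0, where the rule flags any value above 0, so the rate of 1 in 20 does not hold for them. The Bmpr1b value rests on 3 reads. The Smad9 value lies under the 3 reads of that library (0.583 RPM), and the Smad5 value rests on 74 reads, beside 50.7 to 51.0 RPM in the other libraries.

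Effects that differed between stages, by a test of the difference itself in limma, were the female to male log2 differences at E15.5 less those at E12.5 of 3.16 for Bmpr2, 1.52 for Smad1, 1.20 for Smad5, 1.14 for Bmpr1a, -2.48 for Bmpr1b and -2.64 for Smad7. The RB to CT differences at day 9 less those at day 5 were 3.80 for Smad9, 2.97 for Bmpr2, 1.50 for Smad6 and 1.04 for Smad5, and the RB to RA ones were 3.25 for Smad9 and 1.04 for Smad6. The knockout to wild-type difference at day 9 less that at day 3 was 1.02 for Smad7. Bmpr1b and Smad9 passed the filter through groups compared here, so their differences are values and not support from a test. Some fits that left out a library ended the calls of Smad1, of Smad5 in both comparisons, of Smad6 against RA and of Smad7 between the genotypes.

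Libraries outside the tested comparisons held values over 2 times those of their controls, with the lower end of the counting interval above the controls. The 0R3B library had 34.2 RPM of Bmpr2, 13.8 RPM of Smad1 and 40.6 RPM of Smad9, and the c7RB library had 33.6 RPM of Acvr1 and 3.62 RPM of Smad9. Bmpr1a, Smad5 and Smad6 in c7RB also had intervals apart from c7CT, at under 2 times its level.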

How the results depend on the processing

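Of 73 calls over 29 comparisons, 48 held under every alternative that could be run on them and none reversed, the filter at 10 RPM having been run on 61 of the 73. A pseudocount of 5 RPM ended 17 calls, median centring 7, quantile normalization 6, no filter 3 and dropping the trend, an alternative chosen after seeing the data, 1. Fits that left out a library ended 42 of 372. With a pseudocount of 5 RPM the count of called genes was 4 for female against male cells at E14.5, 0 for E11.5 against E9.5, 3 for male E15.5 against E11.5, 1 for the RB against RA change from day 5 to day 9 and 0 for the knockout change from day 3 to day 9, which was 0 also without a filter and after median centring. With a filter at 10 RPM it was 1 for E13.5, 1 for E11.5 against E9.5 and 2 for male E15.5 against E11.5. It was 1 in place of 0 at E12.5 with a pseudocount of 0.5 RPM and in 1 fit over the experiments, 1 for CT day 3 against day 0 without a filter and in that single fit, 2 for RA against CT at day 9 in that single fit and without the trend, and 2 for knockout against wild type at day 9 with quantile normalization. The cause was not tested.

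Without single libraries the counts ranged from 1 to 4 at E13.5, 6 to 8 at E14.5, 5 to 7 at E15.5, 4 to 8 for the sex interaction, 1 for E11.5 against E9.5, 6 to 7 for female and 4 to 5 for male cells at E15.5 against E11.5, 0 to 1 for CT day 3 against day 0 and 1 to 2 for RA against CT at day 9. They ranged from 3 to 5 for RB against CT at day 7 and 4 to 5 at day 9, from 1 to 3 for RB against RA at day 7 and 3 to 4 at day 9, from 4 to 5 for RB day 9 against CT day 3, 3 to 4 and 1 to 3 for the RB changes over time against CT and RA, 4 to 5 in wild type and 5 to 6 in knockout cells, and 0 to 1 for the knockout change over time.

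Apart from the knockout lines, each comparison had at most 2 pairs of equal replicate numbers, which therefore were not taken to pair the samples. Correlations of same-numbered deviations were 0.00 to 0.05 in embryos, -0.05 to 0.24 in the 129S1:C57BL/6 line and 0.00 to 0.11 in the Stra8 experiment. With the replicate block 28 of 29 counts were equal, knockout against wild type at day 9 giving 2, and no call was lost. With the replicate block by knockout line, an alternative chosen after seeing the data, the counts between days 9 and 3 were equal too, at 5 in knockout cells and 1 for the change of the genotype difference. A count model was not run, since 81.0 to 93.2% of the low values examined, not nearly all, came out as whole reads. Depth limits Bmpr1b and Smad9 most, with 64 and 39 of 75 libraries under 3 reads.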
